A study of Mus musculus with 10 samples.

Results

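Fos, Jun, Junb, Egr1, Ier2, Ier3, Ier5, Myc and Dusp1 are genes known for transcripts that rise soon after a stimulus, and they are described here together with Klf2, a transcription factor gene that macrophages express at rest. The 10 genes were picked by symbol from a deposited table of 22186 genes, and all 10 were present. Of these, 9 had a mean of at least 1 FPKM (fragments per kilobase of transcript, scaled to the mapped fragments of the library) over the 10 libraries and were tested together with all other such genes, 9869 in number. Egr1 lay below that level and was not tested.

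The RNA came from RAW264.7, a wild-type mouse macrophage-like line from a virus-induced tumour. There were 5 libraries from cells kept in medium and 5 from cells kept in medium with doxorubicin, an anthracycline that inserts into DNA and poisons topoisomerase II, for 24 h. The dose is uncertain, because the titles name 10 nM, the design text names 100 nM, and the stated dilution (0.001% by volume of a 100 mM stock) comes to 1000 nM. Dimethyl sulfoxide is named as the solvent of doxorubicin and no solvent is named for the medium cultures. Nothing in the labels states that the libraries of a group derive from different cultures, so the p-values reflect the spread between these libraries, which may be technical.

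Immediate early genes need no new protein for their induction. Kinase cascades act on factors already bound at their promoters, and the transcripts are then removed quickly. FOS, JUN and JUNB proteins pair to form the AP-1 transcription factor. EGR1 is a zinc finger factor, MYC drives growth and ribosome production, and DUSP1 is a phosphatase that switches off p38 and JNK. In macrophages these genes respond to growth factors, microbial products and adhesion, while KLF2 is known to restrain inflammatory activation.

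FPKM totals per library ran from 338293 to 356111, and the number of reads behind them is unknown. Of 10 macrophage markers, 9 reached 1 FPKM in some library, with a summed level of 1416 to 1561 FPKM in medium and 1482 to 1687 FPKM with doxorubicin. Mrc1, a mannose receptor gene, was the exception, at 0.202 to 0.529 FPKM. Summed markers of T cells, B cells, fibroblasts, epithelium, endothelium and erythroid cells stayed below 1 FPKM in every library, and the neutrophil markers summed to at most 1.74 FPKM, mostly from S100a8, with Ly6g and S100a9 listed at 0. Both groups carry replicate numbers 1 to 5. Libraries of number 1 correlated with those of numbers 2 to 5 at 0.937 to 0.982 (Pearson, log2(FPKM + 1) over the tested genes), against 0.976 to 0.998 among the other 8. Results are therefore given with and without number 1, and the replicate number was also fitted as a block, which compares doxorubicin with medium inside each number.

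With the block, Klf2, Ier3, Jun, Junb, Ier2 and Myc fell and Ier5 rose with doxorubicin, while Fos and Dusp1 did not pass. That made 6 of 9 tested members lower and 1 higher at a limma adjusted p under 0.05 with the block, where 13.7% of all tested genes were lower and 7.81% higher (21.6% in all). Without the block, limma called 0 of 9 members (0.912% of all genes). Unblocked, 3 of the 9 (Ier5, Klf2 and Myc) had an unadjusted limma p under 0.05, as did 1757 of all 9869 tested genes. The exact permutation test called 0. Its smallest possible p of 0.00794 came to an adjusted p of 0.118 here, so it could not call any gene. Limma with library quality weights called 8 (37.3% of all genes). Without both number 1 libraries, 1 of 9 was called without the block (Ier5, 5.63% of all genes) and 8 with it (28.6%). The calls of Klf2, Ier3 and Ier5 held with the block when any 1 of the 5 numbers was left out (highest adjusted p 0.0205, 0.0189 and 0.0241). In those fits 5 members were called without number 2 (15.7% of all genes), 6 without number 3 (13.2%), 3 without number 4 (6.45%) and 3 without number 5 (6.36%). With 3 blocks, made of number 1, numbers 2 with 3 and numbers 4 with 5, 8 were called (32.1%). The other 4 calls did not hold when 1 number was left out of the fit with 5 blocks. Jun lost its call without number 2, 4 or 5, and Ier2 without any 1 of numbers 2 to 5. Junb and Myc lost theirs without number 4 or 5. The highest adjusted p was 0.0662 for Jun, 0.0921 for Junb, 0.119 for Ier2 and 0.0988 for Myc. In total RNA from a culture, fewer cells with a transcript and less transcript per cell cannot be told apart.

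**Figure D1:**
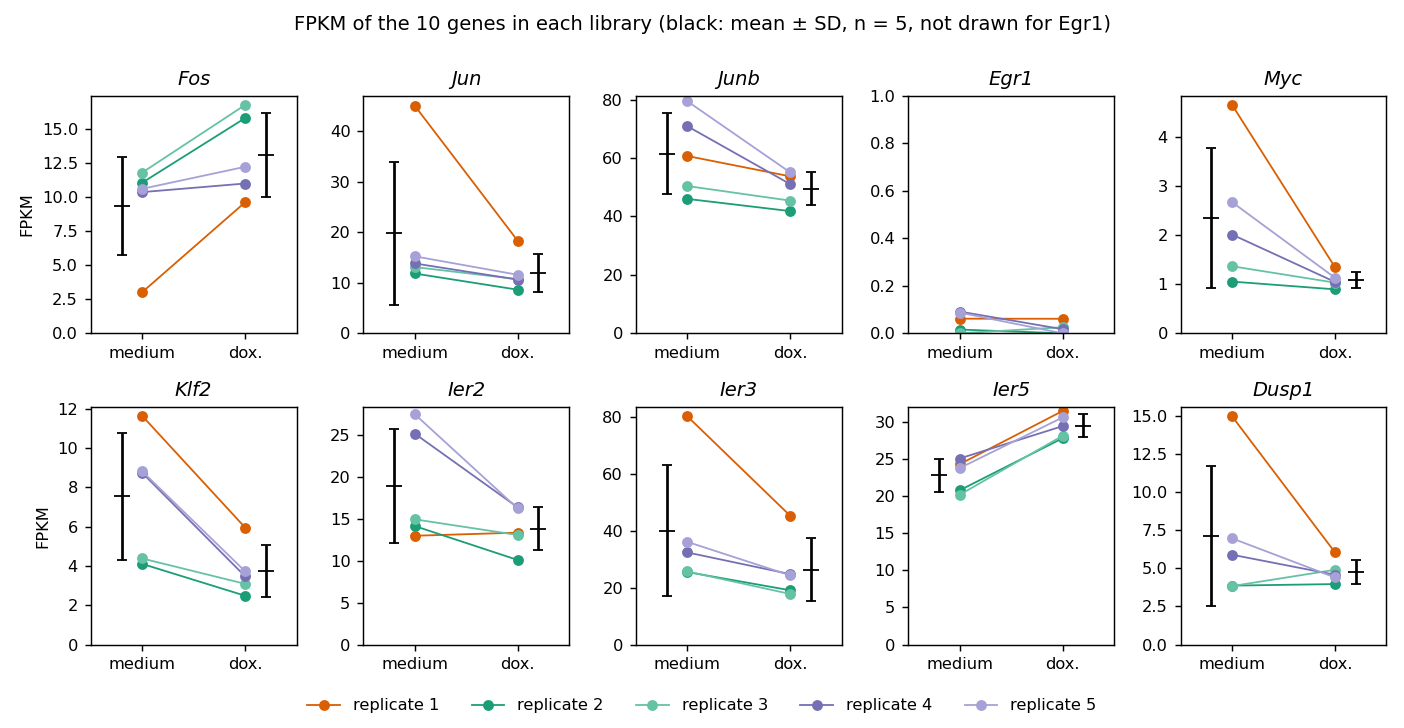
FPKM of each of the 10 genes (vertical axes, linear, from 0) in medium and with doxorubicin. Lines join the 2 libraries of a replicate number, and black marks are the mean and SD of 5 libraries (not drawn for Egr1). For Ier5 the groups do not overlap, and for Jun, Ier3, Dusp1 and Myc the medium library of number 1 stands above the rest.

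Promoter sequences of 4 members are printed here because the genes differed in direction: Klf2 and Jun were lower in each replicate number, Fos and Ier5 higher. RefSeq (GRCm38.p6) gave a sequence from 250 bases before to 50 bases after the annotated start for 7 of the 10 members, matched by symbol (all but Ier2, Egr1 and Myc), and the 250 bases before the start are printed 5′ to 3′. The build of the deposited values was GRCm39, so these coordinates belong to the sequences alone. Klf2 lies at chr8:72318812-72319061 on the plus strand, Jun at chr4:95052223-95052472 on the minus strand, Fos at chr12:85473640-85473889 on the plus strand and Ier5 at chr1:155099637-155099886 on the minus strand. Capitals mark a MEF2 site in Klf2 and Jun, TGACGT in Fos and, at 2 places in Ier5, CCAAT read on the opposite strand (ATTGG).
Klf2: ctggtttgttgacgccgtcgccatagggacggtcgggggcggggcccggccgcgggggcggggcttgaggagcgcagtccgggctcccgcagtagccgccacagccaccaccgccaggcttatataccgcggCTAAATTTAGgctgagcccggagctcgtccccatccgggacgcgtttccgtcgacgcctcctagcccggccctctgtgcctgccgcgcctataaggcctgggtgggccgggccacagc
Jun: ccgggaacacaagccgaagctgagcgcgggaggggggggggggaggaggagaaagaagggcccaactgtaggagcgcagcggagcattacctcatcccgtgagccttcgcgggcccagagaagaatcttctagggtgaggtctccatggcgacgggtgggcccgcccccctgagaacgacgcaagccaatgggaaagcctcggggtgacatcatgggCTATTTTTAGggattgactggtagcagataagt
Fos: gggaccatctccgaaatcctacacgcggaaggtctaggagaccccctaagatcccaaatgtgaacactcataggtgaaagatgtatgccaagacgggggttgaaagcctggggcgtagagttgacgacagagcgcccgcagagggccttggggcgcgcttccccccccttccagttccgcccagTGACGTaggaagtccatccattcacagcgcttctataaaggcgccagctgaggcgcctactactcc
Ier5: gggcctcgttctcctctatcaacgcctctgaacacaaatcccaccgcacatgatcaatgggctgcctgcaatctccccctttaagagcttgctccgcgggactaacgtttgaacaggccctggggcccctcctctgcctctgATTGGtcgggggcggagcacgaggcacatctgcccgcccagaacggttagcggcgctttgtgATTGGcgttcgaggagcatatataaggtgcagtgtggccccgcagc

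The MEF2 site, named for the factor family that binds it, stood as CTAAATTTAG in Klf2 and CTATTTTTAG in Jun, and in none of the other 5 members, against 3.19% of the 32851 RefSeq promoters of this length. Ier3 and Junb, which were also lower in each replicate number, were among those without it. A link between a motif and the direction of change was not tested. The cyclic AMP response element TGACGTCA occurred in Dusp1 alone of the 7 (1.79% of all promoters), and the shorter TGACGT, which it contains, in Dusp1 and Fos (7.51%). The CCAAT motif was found in Ier3, Ier5, Jun and Junb (37.4%), GGGCGG in 6 of the 7 (35.7%), and TATAAA in Fos and Junb (13.6%). TATAAA lay at bases -33 to -28 from the annotated start in Fos, but at bases 1 to 6, past the start, in Junb. GCGGGGGCG, an EGR motif, occurred in Klf2 (2.91%), where it overlaps GGGCGG, and the E-box CACGTG in Dusp1 (7.15%). Neither the serum response element known as the CArG box (1.63%) nor the AP-1 motif TGACTCA (5.20%) was found in these 7 windows. Sites further upstream, and variants with letters other than those searched, would be missed. The search therefore does not show that these genes lack such elements. All motifs were searched on both strands, and a match describes letters in a window, not a bound factor.

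The transcripts of the members have few exons. In GENCODE M21, taking the transcript with the longest coding sequence for each gene, all 10 have at most 4 exons, against 18.1% of the 9672 tested genes with an entry. Jun, Junb, Ier2 and Ier5 have 1 exon each. The pentamer ATTTA, the core of AU-rich elements that mark short-lived messages, occurred at a median of 3.68 per kilobase of 3′ untranslated region, against 1.25 over the tested genes. Ier3 had the densest run, with 5 in 613 bases, and Ier2 had 0 in 755 bases.

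Fos encodes the AP-1 subunit that pairs with JUN proteins. It stood at 3.02, 11.1, 11.8, 10.4 and 10.6 FPKM in medium replicates 1 to 5 and at 9.63, 15.8, 16.8, 11.0 and 12.2 FPKM with doxorubicin. Medium replicate 1 was far below the other 4 medium libraries, and the groups overlapped. Within numbers 1 to 5 the differences on the log2(FPKM + 1) scale were 1.40, 0.48, 0.47, 0.08 and 0.19, higher in 5 of 5. The mean difference of 0.52 did not pass (SE 0.30, limma adjusted p = 0.386; SE 0.17, adjusted p = 0.0541 with the block), except with 3 blocks (adjusted p = 0.0234). Without medium replicate 1 alone it was 0.21. Leaving out both number 1 libraries brought the difference to 0.30, and it then passed with the block (adjusted p = 0.0143) but not without (0.143).

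Jun encodes the partner of FOS. Its level was 45.0 FPKM in medium replicate 1 and 11.8, 13.1, 13.8 and 15.2 FPKM in medium replicates 2 to 5. With doxorubicin it was 18.3, 8.63, 10.7, 10.6 and 11.6 FPKM. Each library with doxorubicin was below the medium library of its number, though number 1 as a whole stood above the rest and the groups overlapped. The differences within numbers were -1.25, -0.41, -0.27, -0.35 and -0.37, with a mean of -0.53 (SE 0.33, limma adjusted p = 0.428; SE 0.13, adjusted p = 0.0256 with the block). Without medium replicate 1 alone the mean was -0.20, and without both number 1 libraries it was -0.35 (adjusted p = 0.0647, and 0.00127 with the block).

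Within each replicate number Fos was higher and Jun lower with doxorubicin. The ratio of Fos to Jun FPKM, a value chosen after the data were seen, was 0.0670 in medium replicate 1 and 0.697 to 0.936 in medium replicates 2 to 5. With doxorubicin it was 0.525 in replicate 1 and 1.04 to 1.83 in replicates 2 to 5. It was higher with doxorubicin in each of the 5 numbers, and the lowest value with doxorubicin, that of replicate 1, was below the medium values of numbers 2 to 5. The Pearson correlation of the 2 genes over the 10 libraries was -0.96, and it was -0.73 over the 8 libraries of numbers 2 to 5, whose numbers group into sets described further on. This opposition was not particular to Jun. Over the same 10 and 8 libraries, Fos correlated with Ier3 at -0.94 and -0.90, with Klf2 at -0.78 and -0.72, and with Ier2 at -0.03 and -0.75. Ier5 was the only tested member with positive values (0.19 and 0.39).

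**Figure D2:**
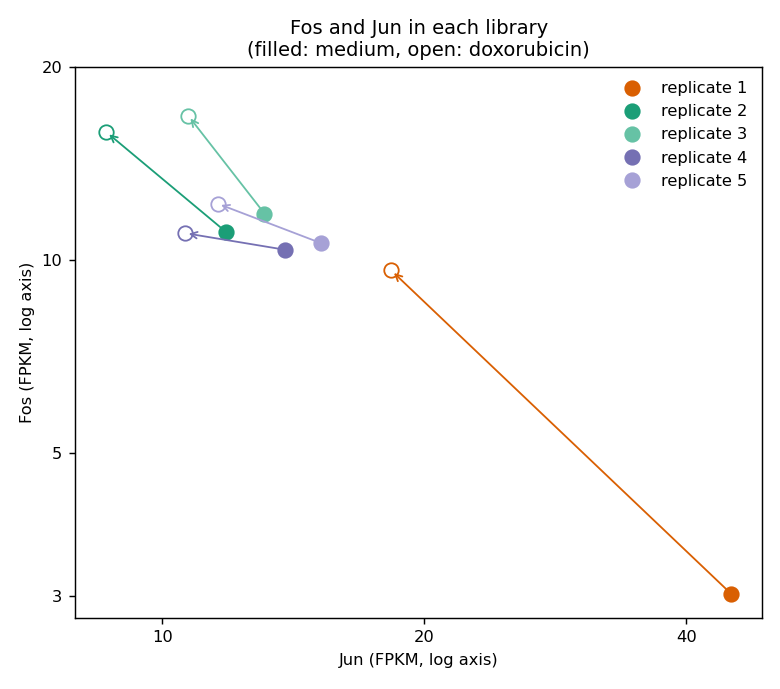
Fos against Jun (FPKM, both axes logarithmic) in each of the 10 libraries, filled for medium and open for doxorubicin, with an arrow from medium to doxorubicin within each replicate number. All 5 arrows point to less Jun and more Fos, and number 1 starts at 45.0 FPKM of Jun and 3.02 FPKM of Fos.

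Junb, the AP-1 gene whose product is a weaker activator than JUN, had the highest mean in medium of the 10 members. It was at 60.7, 46.0, 50.4, 70.9 and 79.5 FPKM in medium and at 53.7, 41.8, 45.4, 51.1 and 55.1 FPKM with doxorubicin. The differences were -0.47 and -0.52 in numbers 4 and 5 and -0.17, -0.13 and -0.15 in numbers 1 to 3, and the groups overlapped. The mean difference was -0.29 (SE 0.15, limma adjusted p = 0.329; SE 0.07, adjusted p = 0.0238 with the block), and without medium replicate 5 it was -0.19.

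Klf2 had the largest mean difference among the tested members. It was at 11.6, 4.11, 4.38, 8.74 and 8.82 FPKM in medium replicates 1 to 5 and at 5.96, 2.48, 3.09, 3.47 and 3.73 FPKM with doxorubicin. Every library with doxorubicin was below its medium partner, at 0.397 to 0.705 of the medium FPKM, while doxorubicin replicate 1 was above medium replicates 2 and 3. On the log2(FPKM + 1) scale the differences were -0.86, -0.55, -0.40, -1.12 and -1.05, with a mean of -0.80 (SE 0.27, limma adjusted p = 0.165; SE 0.11, adjusted p = 0.00361 with the block). The exact permutation test gave p = 0.0476, two-sided, and an adjusted p of 0.266.

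Myc was low in these cells, at 4.65, 1.05, 1.37, 2.01 and 2.67 FPKM in medium. With doxorubicin its 5 libraries lay close together at 1.35, 0.896, 1.03, 1.05 and 1.13 FPKM. Medium replicate 2 was within the range of the doxorubicin libraries. Differences within numbers ran from -1.27 in number 1 to -0.12 in number 2, with a mean of -0.59 (SE 0.23, limma adjusted p = 0.217; SE 0.15, adjusted p = 0.0291 with the block). Without medium replicate 1 the mean was -0.38. Since the pseudocount of 1 FPKM is close to these levels, it understates the change, and with 0.1 FPKM the mean without the block was -0.87.

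Egr1 was at or near 0 in every library. It was listed at 0 in medium replicate 3 and in doxorubicin replicates 2 and 5, and the highest value was 0.0916 FPKM in medium replicate 4. No difference is given at such levels.

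Ier5, which encodes a nuclear protein that acts with the heat shock factor HSF1, was the member whose groups did not overlap. It was at 24.3, 20.8, 20.2, 25.1 and 23.8 FPKM in medium and at 31.5, 27.8, 28.1, 29.5 and 30.6 FPKM with doxorubicin. All 5 values with doxorubicin were above all 5 in medium, as for 2.73% of all tested genes. The differences within numbers were 0.36, 0.40, 0.46, 0.22 and 0.35, and number 1 did not stand apart. The mean of 0.36 missed the threshold without the block (SE 0.08, limma adjusted p = 0.0536) and passed it with the block (SE 0.05, adjusted p = 0.00367) and without both number 1 libraries (0.0262). The exact permutation test gave p = 0.00794, the smallest it can give, and an adjusted p of 0.118.

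Ier3, a gene known as IEX-1 whose product affects survival and ERK signalling, ran the other way. It was at 80.5, 25.6, 25.8, 32.5 and 36.2 FPKM in medium and at 45.4, 19.1, 17.8, 24.8 and 24.4 FPKM with doxorubicin. Number 1 was above the rest in both groups, and within each number the doxorubicin library was at 0.564 to 0.764 of the medium FPKM. The differences of -0.81, -0.40, -0.51, -0.37 and -0.55 averaged -0.53 (SE 0.32, limma adjusted p = 0.425; SE 0.07, adjusted p = 0.00306 with the block). The mean was -0.25 without medium replicate 1 alone and -0.74 without doxorubicin replicate 1 alone. Without both number 1 libraries it was -0.46 (adjusted p = 0.0832, and 3.06e-04 with the block).

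Ier2, which encodes a small nuclear protein, was at 13.0, 14.1, 14.9, 25.1 and 27.4 FPKM in medium and at 13.3, 10.1, 13.0, 16.4 and 16.2 FPKM with doxorubicin. The 2 libraries of number 1 differed by 0.04, and those of numbers 2 to 5 by -0.45, -0.18, -0.59 and -0.72. The mean was -0.38 (SE 0.21, limma adjusted p = 0.378; SE 0.10, adjusted p = 0.0349 with the block). Medium replicates 4 and 5 were the highest libraries, and leaving out medium replicate 5 brought the mean to -0.24.

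Dusp1 encodes the phosphatase that ends p38 and JNK signalling. It was at 15.0, 3.87, 3.84, 5.90 and 6.98 FPKM in medium and at 6.06, 3.97, 4.91, 4.59 and 4.41 FPKM with doxorubicin. Its differences went in both directions, at -1.18 in number 1, 0.03 and 0.29 in numbers 2 and 3, and -0.31 and -0.56 in numbers 4 and 5. The mean of -0.35 did not pass (SE 0.28, limma adjusted p = 0.560; SE 0.18, adjusted p = 0.192 with the block), and without medium replicate 1 it was -0.06. Library quality weights, which give less weight to libraries that deviate, called it lower (limma adjusted p = 0.0410). Those weights were 2.57 to 4.56 in numbers 4 and 5, 0.549 to 1.24 in numbers 2 and 3, and 0.0947 and 0.235 in number 1. The weighted fit thus leaned on numbers 4 and 5, where Dusp1 was lower, over numbers 2 and 3, where it was not.

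**Figure D3:**
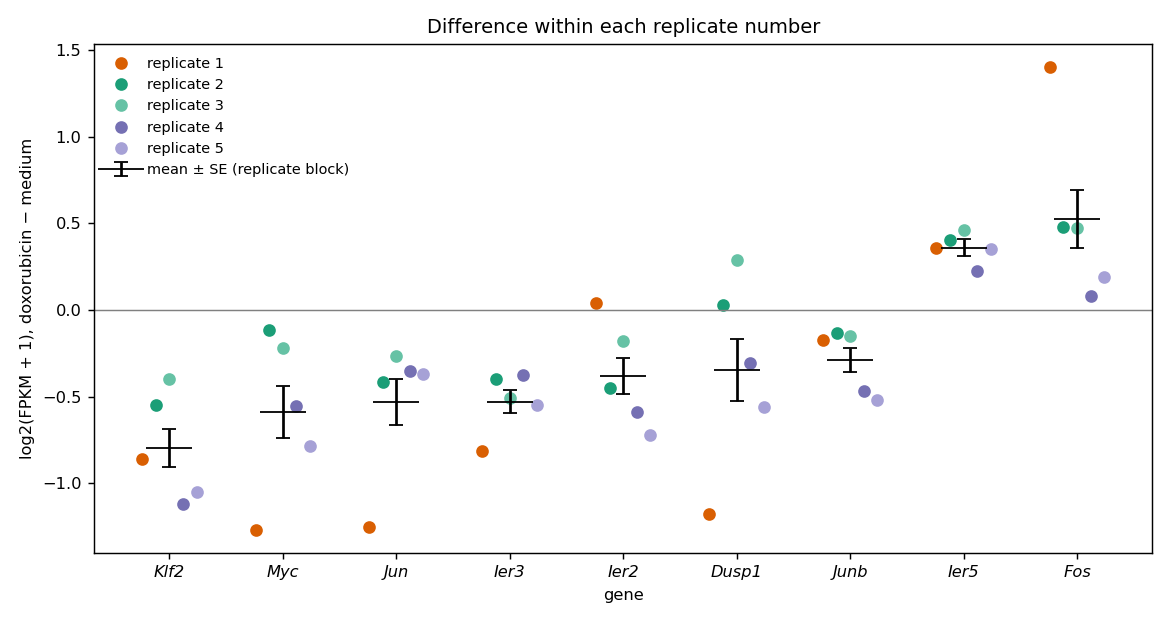
Difference between doxorubicin and medium on the log2(FPKM + 1) scale within each replicate number (coloured points) for the 9 tested genes, with the mean and its SE from the blocked fit (black). Klf2, Myc, Jun, Ier3 and Junb are below 0 in all 5 numbers, and Ier5 and Fos above 0.

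Counted by sign, 5 of the 9 tested members were lower in all 5 numbers (Jun, Junb, Ier3, Klf2 and Myc), against 23.1% of all tested genes. Fos and Ier5 were higher in all 5, as were 13.2% of genes. The median difference over the 9 members was -0.38, against -0.03 over all tested genes.

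The order of the levels in medium, by mean FPKM, was Junb (61.5), Ier3 (40.1), Ier5 (22.8), Jun (19.8), Ier2 (18.9), Fos (9.38), Klf2 (7.54), Dusp1 (7.12), Myc (2.35) and Egr1. The ranges over the 5 medium libraries did not overlap between Ier3 and Ier5, between Ier2 and Fos, or between Myc and Egr1. The other neighbours in this order had overlapping ranges, and Jun was above Ier2 in 1 of 5 medium libraries. With doxorubicin the mean of Fos (13.1 FPKM) was above that of Jun (11.97 FPKM).

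Part of the spread among medium libraries followed the replicate number. Jun, Ier3, Myc and Dusp1 were more than 1 higher on the log2(FPKM + 1) scale in medium replicate 1 than the mean of medium replicates 2 to 5, as were 2.80% of all tested genes. Fos was 1.57 lower there, and 2.11% of genes were more than 1 lower. Among the other libraries, numbers 2 with 3 and numbers 4 with 5 form 2 sets. Medium replicates 4 and 5 were above medium replicates 2 and 3 by more than 0.5 for Klf2 (0.90), Ier2 (0.81), Junb (0.63), Dusp1 (0.61) and Myc (0.59), as for 3.06% of genes. With doxorubicin the same gaps were 0.28, 0.47, 0.28, 0.02 and 0.09. What set these libraries apart was not tested.

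The sets were taken from these same values, so the p-values of the interaction between set and doxorubicin are given as a description and do not establish that an effect differs. For Klf2 the difference between doxorubicin and medium was -0.47 in numbers 2 and 3 and -1.09 in numbers 4 and 5 (a gap of -0.62, SE 0.12, limma interaction adjusted p = 0.0385), and 1.56% of all tested genes were past the threshold. Without the block no other member was (limma adjusted p 0.0649 for Dusp1, 0.0968 for Fos and 0.113 for Junb). With it Klf2 (limma adjusted p = 0.0141), Dusp1 (0.0305) and Junb (0.0262) were, as were 2.52% of all genes. For Dusp1 the effects were 0.16 and -0.43, for Junb -0.14 and -0.49, and for Fos 0.48 and 0.13. The value of Klf2 was above the threshold with a pseudocount of 0.1 FPKM (0.0643), with no filter on low values (0.150), and without any 1 of medium replicates 2 to 5 or doxorubicin replicates 4 or 5 (0.0864 to 0.153). For Jun (-0.34 and -0.36) and Ier3 (-0.45 and -0.46) the effects in the 2 sets differed by 0.02 and 0.01 (SE 0.13 and 0.08), less than their standard errors.

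The wider pathway was read from 11 lists with 161 genes, of which 125 were tested. Without the block 2 rose and 0 fell by limma. At an unadjusted limma p under 0.05 there were 10 higher and 18 lower genes, beside 1757 of all 9869 tested genes. The exact permutation test called 0, and it called 0 of all tested genes too. With the block 9 rose and 30 fell, that is 7.20% and 24.0% of the 125, beside 7.81% and 13.7% of all tested genes. Of 26 genes picked by rule from these lists that passed with the block, 10 still passed in every fit that left out 1 of the 5 numbers: Mafg, Maff, Jdp2, Klf7, Klf6, Pim1, Dusp9, Map2k3, Elk3 and Mxd4. The other 16 lost the call in at least 1 such fit. The 26 were picked for the lowest adjusted p of each list in the blocked fit of these same libraries. The count is therefore no separate support, and the share of all tested genes that passed in every such fit is not given.

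The 2 genes past the threshold without the block were Mxd4 and Elk3. Mxd4 encodes a MAX partner that opposes MYC at its binding sites. It was at 3.06, 4.61, 3.87, 5.04 and 5.17 FPKM in medium and at 8.86, 8.11, 7.50, 7.76 and 8.29 FPKM with doxorubicin. All doxorubicin libraries were above all medium libraries (0.78, SE 0.11, limma adjusted p = 0.0154), and the call was lost without doxorubicin replicate 5 (0.0524). Elk3 encodes an ETS factor that joins SRF at serum response elements and mostly represses. It was at 4.04, 5.05, 4.34, 4.33 and 4.34 FPKM in medium and at 5.96, 6.81, 6.47, 5.59 and 6.34 FPKM with doxorubicin, again without overlap (0.42, SE 0.07, limma adjusted p = 0.0287). Elk3 missed the threshold in 8 of the 10 fits that left out 1 library (highest limma adjusted p 0.1001).

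Among transcription factors of the same families, the genes called with the block were lower. Over all tested genes, 7.81% were higher and 13.7% lower with the block. Of 12 tested AP-1 and small MAF genes beside the members, 0 were higher and 5 lower with the block, and Fosb was below the filter. At an unadjusted limma p under 0.05 without the block, 2 of the 12 were higher and 4 lower. By sign, 2 were higher and 6 lower in all 5 numbers. Jdp2, a repressor within AP-1, was at 19.1, 22.4, 25.3, 36.0 and 37.0 FPKM in medium and at 18.2, 12.7, 15.3, 22.9 and 23.9 FPKM with doxorubicin (-0.55, limma adjusted p = 0.215; 0.00795 with the block). The small MAF genes Maff (-0.60; 0.00507 with the block) and Mafg (-0.33; 0.00473 with the block) were lower in 5 of 5 numbers. Of 9 tested KLF genes other than Klf2, 0 were higher and 5 lower with the block. Klf7 was at 5.78, 4.50, 4.75, 8.17 and 8.18 FPKM in medium and at 3.48, 2.71, 3.42, 4.75 and 4.60 FPKM with doxorubicin (-0.59, limma adjusted p = 0.133; 0.00151 with the block). Klf6 (-0.35; 0.00631 with the block) and Klf13 (-0.31; 0.0275 with the block) also fell, though the call of Klf13 was lost without any 1 of numbers 2 to 5 (highest adjusted p 0.101). Among 4 tested EGR, NR4A and NAB genes, the corepressor gene Nab1 fell with the block (-0.24, adjusted p = 0.0139), and Nab2 (-0.20) and Egr3 (-0.12) did not pass.

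Other rapidly induced genes gave 2 higher and 6 lower of 22 tested with the block, beside 7.81% and 13.7% of all tested genes. The 2 higher genes, Btg2 and Id2, were named after their values were seen. The kinase gene Pim1 (-0.39; adjusted p = 0.00378 with the block), the message decay gene Zfp36l1 (-0.29; 0.0150) and the urokinase receptor gene Plaur (-0.24; 0.0176) fell, each in 5 of 5 numbers. Among 11 tested MAP kinase phosphatases and ERK feedback inhibitors, 1 was higher and 3 lower with the block. Dusp9, an ERK phosphatase gene, was at 11.2, 17.6, 14.3, 10.2 and 8.28 FPKM in medium and at 13.8, 22.1, 20.8, 14.7 and 14.6 FPKM with doxorubicin. It rose with the block (0.47, adjusted p = 0.00552), while Dusp16 (-0.29; 0.0230) and Dusp4 (-0.32; 0.0236) fell.

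Upstream, 1 of 19 tested RAS and MAP kinase genes was higher and 5 lower with the block, beside 7.81% and 13.7% of all tested genes. Map2k3, which encodes a kinase of p38, was at 31.5, 58.1, 54.8, 44.8 and 41.2 FPKM in medium and at 58.1, 69.8, 70.2, 57.8 and 58.8 FPKM with doxorubicin (0.47, limma adjusted p = 0.151; 0.00879 with the block). Mapk8, the JNK1 gene, fell (-0.23; 0.0208 with the block). Of 12 factors of the SRF, ETS, CREB and MEF2 groups, Elk3 rose, and Atf1 (-0.30; 0.0291) and Creb1 (-0.23; 0.0304) fell with the block. The call of Atf1 was lost without number 3, 4 or 5 and that of Creb1 without any 1 of numbers 2 to 5 (highest adjusted p 0.0998 and 0.115). The list had 1 higher and 2 lower, and its median was -0.03. Of 7 tested cytoskeletal targets of SRF, 0 were higher and 2 lower with the block, the filamin gene Flna (-0.21; 0.0164) and the tropomyosin gene Tpm4 (-0.17; 0.0387), while Vcl did not pass (0.21; 0.0585).

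Of 18 tested genes known as MYC targets, 3 were higher and 0 lower with the block, beside 7.81% and 13.7% of all tested genes. The 3 were the nucleolar gene Nop16 (0.20, limma adjusted p = 0.0247), the mitochondrial chaperonin gene Hspe1 (0.20, adjusted p = 0.0252) and the nucleoside diphosphate kinase gene Nme1 (0.28, adjusted p = 0.0324). The calls of Nop16 and Nme1 were lost without number 3, 4 or 5 and that of Hspe1 without number 4 or 5 (highest adjusted p 0.103, 0.103 and 0.102). The median of the list was 0.06, against -0.03 over all tested genes. Of 10 tested partners and regulators of MYC, Mxd4 was higher with the block and Fbxw7, a ubiquitin ligase gene that targets MYC, was lower (-0.21; 0.0400), and Zbtb17 did not pass (-0.24; 0.0563). Of 5 KLF2 targets known from lymphocytes and endothelium, Itgb7 alone was tested, at 33.5 ± 2.30 FPKM in medium and 35.2 ± 3.54 FPKM with doxorubicin (SD, n = 5; 0.06, limma adjusted p = 0.722; 0.588 with the block). The direction of Itgb7 reversed with library quality weights.

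**Figure D4:**
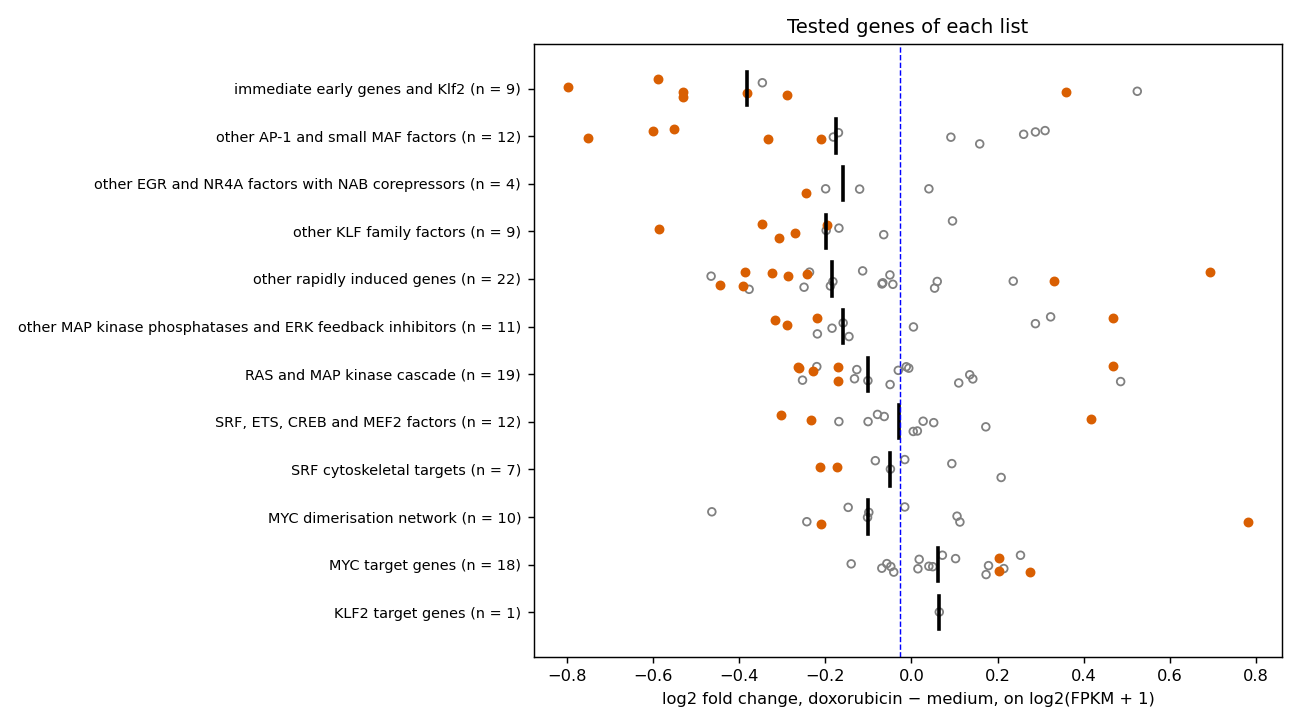
Log2 fold change on the log2(FPKM + 1) scale (horizontal axis) of every tested gene in each list. Orange points passed an adjusted p under 0.05 with the replicate block, grey open points did not, black bars are list medians and the dashed line is the median of all tested genes (-0.03). The immediate early genes and Klf2 have a median of -0.38.

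Over the 10 libraries, the tested genes whose log2(FPKM + 1) profile was most like that of Junb were Nfkbiz, an inhibitor gene of the NF-kB family (Pearson 0.98), the histone demethylase gene Kdm6b (0.98) and Gadd45a (0.98). Nearest to Ier2 were Stk40 (0.99), the cytokine subunit gene Ebi3 (0.99) and Cab39 (0.98), and nearest to Ier3 were the growth factor gene Vegfa (0.99), the glycolytic gene Pfkp (0.99) and Rusc2 (0.99). Jun was closest to Gys1 (0.995), Psmb6 (0.995) and Tecpr2 (0.993), and Fos to Dlst (0.99), Nubp2 (0.98) and Trim26 (0.98). The nearest genes were Zfyve27 (0.99), Lonp1 (0.99) and Man2c1 (0.98) for Klf2, Usp30 (0.98), Prorsd1 (0.98) and Irf2bp2 (0.98) for Myc, and Coq9 (0.98), Exoc6b (0.98) and Golga2 (0.98) for Dusp1. Ier5 was closest to Sat1, a polyamine acetyltransferase gene (0.98), the lipase gene Pnpla2 (0.97) and Glipr1 (0.96). The 10 libraries are joined by replicate number or by set of numbers, and number 1 is included in these values. Among the members themselves, Klf2 and Myc correlated at 0.92 over 10 libraries and 0.96 without number 1, and Junb and Ier2 at 0.88 and 0.98. Jun and Dusp1 went from 0.94 to 0.64 without number 1, and Jun and Ier2 from 0.02 to 0.88.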

How the data were processed

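The FPKM values were deposited by the authors as 1 table of 22186 genes by 10 libraries. The submitters' processing notes name the genome build GRCm39, and the aligner and the counting of reads are not given in the sources used here. FPKM did not fall on steps of whole reads, so depth is unknown and no counting error can be given. Values were analysed as log2(FPKM + 1) for the 9869 genes averaging 1 FPKM or more, with limma 3.58.1 in R 4.3.3 (intensity trend, Benjamini-Hochberg adjustment, threshold 0.05). Fold changes on this scale understate those of low genes. Deviations from the group means correlated at 0.79, 0.70, 0.67, 0.52 and 0.55 between the medium and doxorubicin libraries of the same number. Across numbers 2 and 3 they correlated at 0.69 (medium 2 with doxorubicin 3) and 0.59 (medium 3 with doxorubicin 2). Across numbers 4 and 5 both values were 0.51. The 2 numbers of a set are thus hardly told apart by these values. Replicate numbers were also fitted as a block, as an alternative. An exact two-sided permutation test over 252 arrangements was run on the group difference of every tested gene, without regard to replicate number.

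The members and the lists were chosen with earlier results of these data known. Genes outside the members were named by rule: per list, the 3 tested genes with the lowest adjusted p with the block and any called without it, and per member the 3 tested genes with the highest correlation. For 1 gene that this rule names, the result is not reported here. Other alternatives were another pseudocount, no filter, quantile normalization, library weights, 3 blocks and leaving libraries out.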

Additional observations from a re-analysis of the deposited data

Results flagged for a closer look

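In groups of 5 libraries, a library was singled out when its gap to the nearest other library exceeded Dixon's 95% critical value as a share of the range. That was so for 5 of the 20 groups examined. Chance gives about 1 in 20 for independent groups, but these groups share the same libraries and are not independent. Of the 5 flags, 4 fell on medium replicate 1. The libraries were medium replicate 1 for Fos (3.02 FPKM), Jun (45.0 FPKM), Ier3 (80.5 FPKM) and Dusp1 (15.0 FPKM), and doxorubicin replicate 1 for Ier3 (45.4 FPKM). The difference between doxorubicin and medium for Klf2 was lower by 0.62 in numbers 4 with 5 than in numbers 2 with 3 (-0.62 on the log2(FPKM + 1) scale, past the threshold of an interaction term), though these sets were taken from the same values.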

How the results depend on the processing

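No member changed direction under any alternative run. The unblocked fit called 90 of all tested genes and 0 members, and a pseudocount of 0.1 FPKM, no filter and quantile normalization gave 86, 92 and 98 genes. With the replicate block, limma called 2127 genes and 7 members, and with 3 blocks 3168 and 8. Without both number 1 libraries it called 556 genes and 1 member, and with the block as well 2827 and 8. Library quality weights gave 3681 genes and 8 members. The exact permutation test gave 0 genes, since its smallest possible p came to an adjusted p of 0.118. Leaving out 1 library at a time gave 15 (without medium replicate 4) to 226 genes (without medium replicate 1) and 0 to 1 members, the 1 being Ier5 without medium replicate 1 (limma adjusted p = 0.0331). With the block, leaving out both libraries of a number, chosen after seeing the data, gave 1549 genes and 5 members without number 2, 1300 and 6 without number 3, 637 and 3 without number 4, and 628 and 3 without number 5. The difference between the 2 sets of numbers passed for 154 genes, 137 with a pseudocount of 0.1 FPKM, 249 with the block and 0 with no filter (2267 at an unadjusted p under 0.05), and leaving out 1 library gave 14 to 273. Leaving out 1 library gave -0.25 to 0.070 for Egr3, which reversed without medium replicate 5 (0.070) and without doxorubicin replicate 2 (0.0028), and Itgb7 reversed with library quality weights (-0.0669) and without number 3 with the block (-0.013). The cause was not tested. The depth behind the FPKM values is unknown, so low levels such as those of Egr1 and Myc carry a counting error that cannot be given.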
